A study of Homo sapiens with 8 samples.

Results

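The replication-dependent histone genes encode the linker histone H1 and the core histones H2A, H2B, H3 and H4 that package newly copied DNA. They were taken as every entry of the deposited gene tables whose symbol begins with HIST1H, HIST2H, HIST3H or HIST4H, and pseudogene entries with PS in the symbol were left out. Of 106 matching entries 14 were left out, and 92 of the 63677 entries in the tables remained. These 92 entries carry 76 distinct symbols, because 15 symbols have more than 1 entry. No symbol had reads in more than 1 of its entries. GENCODE 29 calls 6 of the symbols pseudogenes, and 3 of these had reads (HIST2H2BC, HIST2H2BD and HIST3H2BA).

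Total RNA came from DND-41 and MOLT-4, established human cell lines of T-cell acute lymphoblastic leukaemia. Cells of each line received 100 nM ACBI-1 or the solvent DMSO for 3 h, and the 4 groups (DND-41 with ACBI-1, DND-41 with DMSO, MOLT-4 with ACBI-1, MOLT-4 with DMSO) hold 2 libraries each. ACBI-1 is a bivalent degrader that directs the chromatin-remodelling ATPases SMARCA2 and SMARCA4 and the bromodomain protein PBRM1 to the proteasome. ACBI-1 was given at 1 dose and for 1 time only. Separate cultures are not named for the replicates, and the spread behind each p-value may therefore be technical.

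Replication-dependent histone genes lie in clusters, mostly without introns, and are transcribed at the onset of S phase under the coactivator NPAT. Their mRNAs end in a conserved stem-loop in place of a poly(A) tail. The stem-loop binding protein SLBP holds this end during processing, translation and decay, and the mRNAs are degraded quickly when DNA synthesis stops. Some of these genes also give polyadenylated transcripts that extend past the stem-loop. The replication-independent variants, such as H3.3 from H3F3A and H3F3B and the linker histone H1.0 from H1F0, come from ordinary polyadenylated genes.

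The stem-loop is shown because it sets the members apart from other mRNAs. Among GENCODE 29 transcripts, 34 of the 76 symbols contained a 16-base stem-loop of the searched form, in 5 spellings, and the 3 spellings with the most symbols are given here with the paired stem in capitals and the loop in lower case.
Stem-loop in 18 symbols, among them HIST2H2BE, HIST3H2A, HIST1H2AC and HIST1H2BL: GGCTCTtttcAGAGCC
Stem-loop in 5 symbols: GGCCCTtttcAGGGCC
Stem-loop in 5 other symbols: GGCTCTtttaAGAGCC
The transcript annotated for HIST2H2BE ran 1729 bases past its stem-loop, that of HIST1H2BL 40 bases. Of the 34 symbols, 24 had at least 100 annotated bases past the stem-loop, with a median of 11.88 mean reads per library, and 10 had fewer, with a median of 5.81. This is a description of annotated ends, and gene length enters it. A symbol without a match need not lack the stem-loop. Many of these symbols have short annotated transcripts that may stop before it, such as 381 bases for HIST1H2BK and 411 for HIST1H3D.

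H2A and H2B genes often stand head to head and share the stretch between their starts. The first 4 promoters are printed because both genes of their pairs had few or no reads in 1 of the lines, and that of HIST1H2BK because it held the most reads of any member. They are RefSeq promoters on GRCh38.p14, from 250 bases before to 50 bases after the start, 5′ to 3′ on the gene's strand. Capitals mark CCAAT (or ATTGG on the other strand), the TATA element TATAAA (or TTTATA) and the octamer ATTTGCAT (or ATGCAAAT), which is known from H2B promoters.
HIST2H2BE, chr1:149886633-149886932, minus strand: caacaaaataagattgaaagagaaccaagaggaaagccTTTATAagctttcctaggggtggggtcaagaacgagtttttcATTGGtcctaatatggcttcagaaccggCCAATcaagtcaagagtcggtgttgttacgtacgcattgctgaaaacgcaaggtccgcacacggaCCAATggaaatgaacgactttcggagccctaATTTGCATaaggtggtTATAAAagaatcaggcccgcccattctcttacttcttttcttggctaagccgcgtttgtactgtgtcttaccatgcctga
HIST3H2A, chr1:228457824-228458123, minus strand: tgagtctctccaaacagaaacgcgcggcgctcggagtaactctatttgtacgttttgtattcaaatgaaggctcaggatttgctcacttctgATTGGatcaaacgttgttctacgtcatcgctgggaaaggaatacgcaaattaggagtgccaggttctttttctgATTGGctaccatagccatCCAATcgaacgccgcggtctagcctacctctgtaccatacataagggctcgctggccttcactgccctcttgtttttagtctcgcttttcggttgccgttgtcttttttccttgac
HIST1H2AJ, chr6:27814728-27815027, minus strand: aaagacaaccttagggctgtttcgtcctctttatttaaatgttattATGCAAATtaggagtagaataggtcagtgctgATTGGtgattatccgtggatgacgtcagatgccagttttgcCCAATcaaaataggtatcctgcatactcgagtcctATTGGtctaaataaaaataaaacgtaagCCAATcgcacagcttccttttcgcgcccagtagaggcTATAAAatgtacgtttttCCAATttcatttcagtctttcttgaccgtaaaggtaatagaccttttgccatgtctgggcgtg
HIST1H2BG, chr6:26216639-26216938, minus strand: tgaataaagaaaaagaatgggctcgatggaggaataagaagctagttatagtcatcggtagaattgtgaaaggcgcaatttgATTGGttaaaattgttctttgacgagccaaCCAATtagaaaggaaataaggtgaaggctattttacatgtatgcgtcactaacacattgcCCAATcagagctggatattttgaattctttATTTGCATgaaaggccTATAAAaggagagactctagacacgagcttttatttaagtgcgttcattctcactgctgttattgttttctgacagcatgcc
HIST1H2BK, chr6:27146809-27147108, minus strand: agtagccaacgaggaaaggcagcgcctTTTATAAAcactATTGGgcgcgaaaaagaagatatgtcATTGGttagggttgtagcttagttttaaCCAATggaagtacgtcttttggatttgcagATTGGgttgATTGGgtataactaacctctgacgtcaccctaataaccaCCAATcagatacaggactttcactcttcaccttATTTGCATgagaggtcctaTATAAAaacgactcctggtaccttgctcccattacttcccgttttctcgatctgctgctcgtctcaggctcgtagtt
In these windows the octamer was found in the promoters of HIST2H2BE, HIST1H2AJ, HIST1H2BG and HIST1H2BK. That of HIST3H2A held neither the octamer nor TATAAA as spelled here, and it held CCAAT 3 times. RefSeq promoters matched 65 of the 76 symbols. CCAAT was found in 84.62% of them against 35.7% of all 27305 RefSeq promoters, TATAAA in 66.15% against 11.95%, and the octamer in 40.0% against 1.8%. The octamer was in 77.78% of the 18 H2B and 68.75% of the 16 H2A promoters, in 8.33% of the 12 H3 promoters, and in none of the 6 H1 or 13 H4 promoters. H4 promoters held CCAAT in 23.08% of cases, whereas every matched H1, H2A, H2B and H3 promoter held it. A match describes letters only.

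Few reads fell on these genes. Of 19867779 to 20082524 counts per library, the members took 1209 to 1413 in DND-41 and 935 to 1039 in MOLT-4, or 0.00471% to 0.00705%. Whether the libraries were made from poly(A)-selected RNA is not given in the sources used here. Reads of stem-loop mRNAs and of polyadenylated transcripts from the same genes cannot be told apart, here or in the comparisons below. Reads were found for 63 of the 92 entries, 29 entries were at 0 in all 8 libraries, and 29 had a mean of at least 10 reads per library. Counted by symbol, 13 were at 0 in all 8 libraries, since other entries at 0 are further entries of symbols with reads or repeat a symbol at 0. Only HIST1H2BK reached a mean of 5 CPM, the reads of a gene scaled to a common library size. A count of 0 allows up to 3 reads, or 0.149 to 0.151 CPM (counting error only). Near-identical copies such as HIST2H2AA3 and HIST2H2AA4 may share or lose reads, so their values are uncertain, and antisense or overlapping reads could not be separated where the counting strand is not given. Mitochondrial genes took 13.3% to 20.04% of the counts. CD3E, a T-cell marker, had 24272 to 33204 reads in every library, and CD3D, CD3G, CD1A and LCK also had over 1000 in each. Other T-cell markers differed in level between the lines: CD7 had 40095 to 45683 reads in DND-41 and 1536 to 1831 in MOLT-4, CD5 had 23 to 44 and 2042 to 3052, and PTCRA had 0 to 1 and 218 to 301. TLX3 had 4611 to 7523 in DND-41 against 1 to 9 in MOLT-4, and TAL1 had 722 to 796 in MOLT-4 against 0 to 4 in DND-41. Of the other-lineage markers MS4A1, LYZ and HBB were at 0 in all 8 libraries, whereas the B-cell marker CD79A had 31024 to 35375 reads in DND-41 and 176 to 314 in MOLT-4. PDGFRB, a fibroblast marker, had 676 to 1160 reads in DND-41 and 17 to 32 in MOLT-4, and it fell with ACBI-1 in DND-41 (-0.62 ± 0.09). The 2 DND-41 libraries with ACBI-1 stood further apart than other replicates, with a mean chi-square per gene of 15.6 against 2.99 to 5.10 in the other groups and mitochondrial shares of 17.4% and 13.3%.

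By type, H2B genes held more reads than any other type, 49.2% to 57.8% of the members' reads in each library. The 29 H2B entries summed to 760 and 661 reads in DND-41 with DMSO, 699 and 785 with ACBI-1, 511 and 494 in MOLT-4 with DMSO, and 507 and 510 with ACBI-1. The 21 H2A entries summed to 241 and 236, 207 and 242, 227 and 169, and 195 and 184 in the same order of groups. Every DND-41 library exceeded every MOLT-4 library in H2B reads, and treated and control libraries of each line overlapped.
The 6 H1 entries summed to 117 and 126, 103 and 155, 99 and 93, and 112 and 110 reads. The 19 H3 entries summed to 133 and 114, 111 and 139, 130 and 114, and 134 and 126 reads. The 17 H4 entries summed to 96 and 94, 89 and 92, 72 and 65, and 83 and 75 reads.

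**Figure D1:**
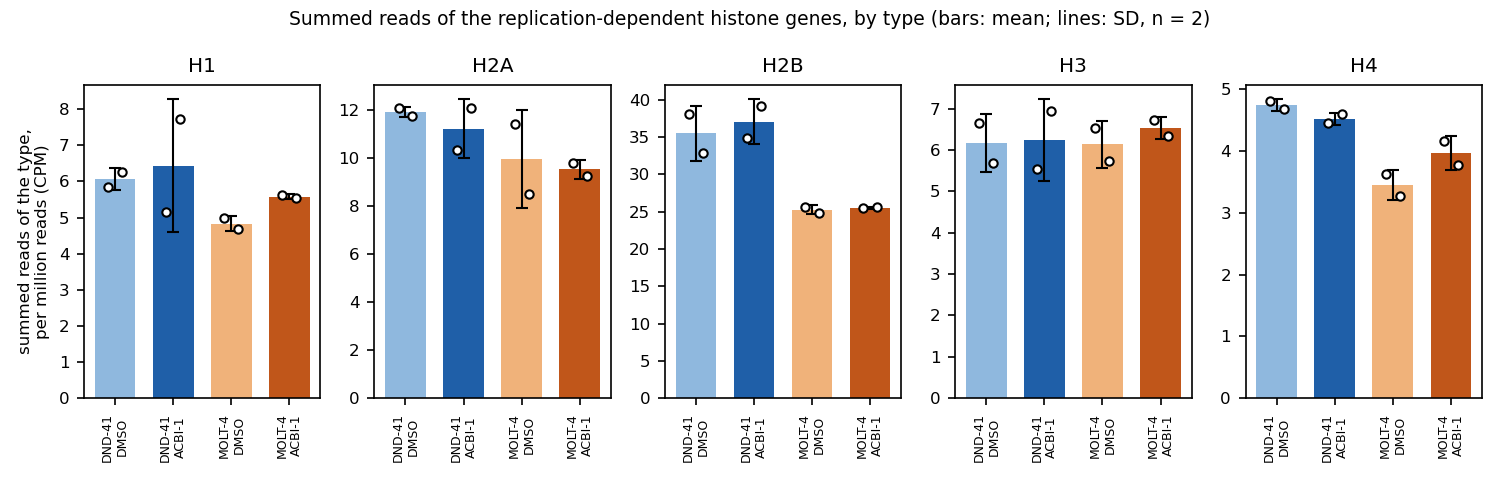
Summed reads of each histone type (vertical axis, CPM), with bars for the mean of the 2 libraries of each group, lines for the SD and circles for single libraries. With DMSO, H2B stood at 35.5 CPM in DND-41 against 25.3 in MOLT-4, and the ACBI-1 bars stand close to their DMSO bars.

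The summed histone reads with ACBI-1 stood near those with DMSO. In DND-41 the members together stood at 64.4 ± 4.36 CPM (SD, n = 2) with DMSO and 65.5 ± 7.14 with ACBI-1, a log2 ratio of 0.02. In MOLT-4 they stood at 49.7 ± 3.66 CPM with DMSO and 51.2 ± 0.863 with ACBI-1, a log2 ratio of 0.04. The difference in DND-41 was smaller than the SD of either group. In MOLT-4 it was smaller than the SD with DMSO and larger than that with ACBI-1. In these bulk libraries, fewer cells transcribing the genes and less RNA per cell cannot be told apart.
Treated and control libraries did not overlap for H4 in DND-41 (log2 ratio -0.07), for H1 in MOLT-4 (0.21) or for H4 in MOLT-4 (0.20). They overlapped for H2A, H2B and H3 in both lines and for H1 in DND-41. With 2 libraries against 2, such separation is common without any difference, so no direction is read from it. No test was made on these sums, since no exact permutation test of 2 libraries against 2 can reach 0.05.

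No tested histone gene was called as changed with ACBI-1 in DND-41. Of the 92 entries 30 passed the filter on low counts, and edgeR's quasi-likelihood test called 0 of them at an adjusted p (Benjamini-Hochberg, over all genes tested) under 5%, where 9.83% of all tested genes were called. None had an unadjusted p under 0.05. DESeq2 gave an adjusted p to 7 members only and called 0 of these. The median log2 fold change of the tested members was 0.01, and of all tested genes 0.00294.
HIST1H2BK, an H2B gene with the most reads of any member, had 351 and 297 reads with DMSO and 320 and 367 with ACBI-1. The groups overlapped, and its log2 fold change was 0.07 ± 0.11 (SE), with a 95% interval of -0.15 to 0.30. For the linker histone gene HIST1H1C, with 98 and 101 reads against 86 and 119, the log2 fold change was 0.03 ± 0.18. For HIST1H2AC it was -0.24 ± 0.18, from 119 and 102 reads with DMSO to 82 and 107 with ACBI-1.
The lowest value was -0.74 ± 0.43 for HIST1H3J, an H3 gene, and the highest was 0.43 ± 0.37 for HIST1H2BC, an H2B gene. Neither passed the test, with adjusted p = 0.337 and 0.567. The precision limits what could be seen: the half-width of the 95% interval had a median of 0.75 on the log2 scale and was 0.22 for HIST1H2BK.

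In MOLT-4 the test called 1 histone gene. HIST2H2BE, which encodes an H2B, had 41 and 47 reads with DMSO and 25 and 25 with ACBI-1, and the groups did not overlap. It fell by 0.84 ± 0.27 on the log2 scale (adjusted p = 0.0446, edgeR). This was 1 of 35 tested members (2.86%), where 10.8% of all tested genes were called and 6.94% were lower. The call was lost in 8 of 10 alternatives, among them DESeq2 (adjusted p = 0.407), total-count scaling (0.0636) and a fit of all 8 libraries (0.0810). It was also lost without any 1 of the 4 MOLT-4 libraries, with log2 fold changes of -0.94 to -0.74. Without either ACBI-1 library the calls of all other genes were lost too. In DND-41 the gene was at 0 in all 4 libraries.
Its divergent partner HIST2H2AC, whose start lies 323 bases away, had 43 and 29 reads with DMSO and 43 and 33 with ACBI-1. Those groups overlapped, and its log2 fold change was 0.05 ± 0.27. HIST1H1D, a linker histone gene chosen after its values were seen, had 10 and 11 reads with DMSO and 20 and 19 with ACBI-1, a log2 fold change of 0.86 ± 0.39 that did not pass the test (adjusted p = 0.188). These were the 2 members with an unadjusted p under 0.05.
HIST1H2BK had 188 and 215 reads with DMSO and 213 and 226 with ACBI-1, a log2 fold change of 0.09 ± 0.12. HIST1H1C, with 54 and 52 against 55 and 50 reads, stood at -0.04 ± 0.22. HIST1H3D, the H3 gene with the most reads, stood at 0.38 ± 0.30, and HIST1H4E, an H4 gene, at 0.37 ± 0.38. The half-width of the 95% interval had a median of 0.80.

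**Figure D2:**
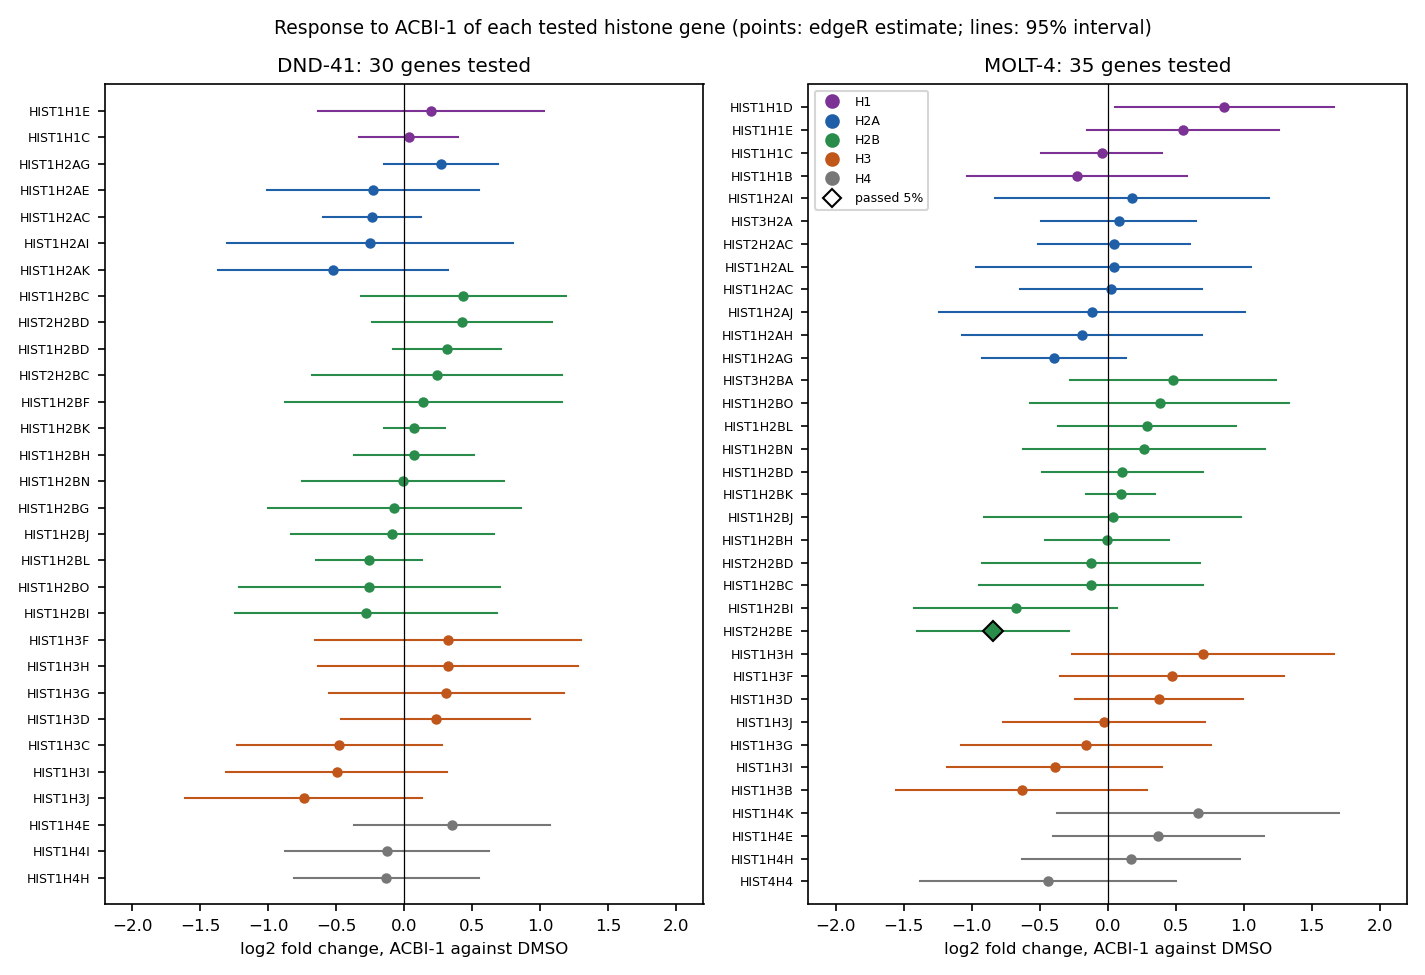
Log2 fold change with ACBI-1 (horizontal axis) of every tested histone gene in DND-41 and MOLT-4, with points for the edgeR estimate, lines for the 95% interval and colours for the type. The points lie on both sides of 0, and only HIST2H2BE in MOLT-4, drawn as a diamond, passed the 5% threshold.

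A difference between the lines in the response was not detectable at this depth. The interaction of treatment and line was called for 0 of 43 tested members by edgeR, where 0.641% of all tested genes were called. Of the 43, 5 (HIST2H2BE, HIST2H2AC, HIST3H2A, HIST3H2BA and HIST1H2AJ) were at 0 in all 4 DND-41 libraries and passed the filter only through MOLT-4, so the test says nothing about them, and 38 remained. Among the 38, HIST1H2BG had 0 to 1 reads in MOLT-4 and passed only through DND-41. The test says little about it (difference -2.27 ± 2.02). DESeq2 gave an adjusted p to 9 members and called 0 of these. Unadjusted p-values under 0.05 were found for 2 members, named after their values were seen: the H2A gene HIST1H2AK, with a difference of 2.18 ± 0.95 (adjusted p = 0.555, edgeR), and the H3 gene HIST1H3B, with -1.89 ± 0.85 (adjusted p = 0.592). Both rest on few reads. With DMSO and then ACBI-1, HIST1H2AK had 17 and 16 against 11 and 12 in DND-41, and 2 and 1 against 7 and 3 in MOLT-4. HIST1H3B had 5 and 1 against 8 and 7 in DND-41, and 15 and 14 against 6 and 13 in MOLT-4. For HIST1H2BK the difference between the responses was 0.04 ± 0.17, with a 95% interval of -0.30 to 0.38. In the authors' deposited tables, 8 members had an adjusted p in DND-41 and 11 in MOLT-4, and 0 were under 5% in either line. Their table for MOLT-4 gives HIST2H2BE an adjusted p of 0.420.

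The lines differed from each other in which histone genes had reads. In DMSO, edgeR called 21 of 43 tested members (48.8%), 11 higher and 10 lower in MOLT-4, where 64.4% of all tested genes were called, 32.8% higher and 31.6% lower. The members' share is thus not above the background. Of the 21 calls, 14 held in all 13 alternatives run. Among the calls, 5 were genes at 0 in all 4 DND-41 libraries, which passed the filter through MOLT-4 and so had to differ. Other called genes reached 10 reads in MOLT-4 libraries only (HIST1H1B, HIST1H1D, HIST1H2AH, HIST1H3B and HIST1H4K). HIST1H2AE, HIST1H2AK, HIST1H2BG and HIST1H3C reached 10 reads in DND-41 libraries only. These genes passed the filter through the line where they were high, which favours a call. Apart from HIST1H2BK and the 3 genes of each type with the most reads, the genes named in this comparison were chosen after their values were seen.

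Among linker histones, HIST1H1C was lower in MOLT-4 and HIST1H1B and HIST1H1D were higher. HIST1H1C had 98 and 101 reads in DND-41 and 54 and 52 in MOLT-4 (log2 fold change -0.85 ± 0.20, adjusted p = 0.000448, edgeR). It made up 76.8% to 83.8% of the H1 reads in DND-41 libraries and 45.5% to 55.9% in MOLT-4. HIST1H1B had 3 and 2 reads against 14 and 17 (2.63 ± 0.58). HIST1H1D had 2 and 3 reads against 10 and 11 (2.08 ± 0.66), and that call was lost with DESeq2 (adjusted p = 0.0653) and without DND-41 DMSO replicate 1 (0.0635). HIST1H1E, with 13 and 19 against 21 and 13 reads, overlapped between the lines.
The summed H1 reads were lower in MOLT-4 by 0.33 on the log2 scale, but without HIST1H1C the ratio was 0.98 in the other direction. H1T, the testis linker histone from HIST1H1T, had 0 or 1 read in each library, and HIST1H1A had none.

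Of the H2A genes, HIST1H2AC was lower and several others had reads in MOLT-4 and none in DND-41. HIST1H2AC had 119 and 102 reads in DND-41 and 32 and 18 in MOLT-4 (log2 fold change -2.08 ± 0.24, adjusted p = 1.92e-08, edgeR). HIST1H2AG had 63 and 58 reads against 52 and 37, and its difference of -0.38 ± 0.22 did not pass the test. HIST1H2AK had 17 and 16 reads against 2 and 1, a DND-41 to MOLT-4 ratio of 10.9 with a 95% counting interval of 3.43 to 55.6.
HIST2H2AC was at 0 in all 4 DND-41 libraries and had 43 and 29 reads in MOLT-4 with DMSO, at least 12.1-fold higher against a floor of 3 reads per library. HIST3H2A was likewise at 0 in DND-41 and had 36 and 28 reads, at least 10.7-fold higher. HIST1H2AJ was at 0 against 12 and 5 reads, at least 2.85-fold higher. Without HIST1H2AC, the summed H2A reads were higher in MOLT-4 by 0.45 on the log2 scale, and with it they were lower by 0.26.

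Of the H2B genes, HIST1H2BK gave 44.9% to 46.8% of H2B reads in DND-41 and 36.8% to 44.3% in MOLT-4. Its 351 and 297 reads in DND-41 stood against 188 and 215 in MOLT-4 (log2 fold change -0.62 ± 0.12, adjusted p = 4.27e-05, edgeR). HIST1H2BL had 127 and 82 reads against 31 and 17 (-2.06 ± 0.26, adjusted p = 9.36e-08), while HIST1H2BH, with 62 and 73 against 64 and 46, overlapped between the lines. HIST1H2BG had 13 and 10 reads in DND-41 and 1 and 0 in MOLT-4, a ratio of 22.8 with a counting interval of 3.71 to 940.5.
HIST2H2BE was at 0 in every DND-41 library against 41 and 47 reads, at least 14.8-fold higher in MOLT-4. HIST3H2BA, annotated as a pseudogene, was at 0 against 12 and 16 reads, at least 4.70-fold higher. HIST3H2BB was at 0 against 8 and 6 reads and HIST1H2BM at 0 against 9 and 4.

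The 3 H3 genes with the most reads were not called between the lines. HIST1H3D had 26 and 18 reads in DND-41 and 25 and 21 in MOLT-4, HIST1H3J 20 and 15 against 23 and 14, and HIST1H3I 22 and 16 against 20 and 16. The groups overlapped for each, and none of these 3 passed the test. HIST1H3C was lower in MOLT-4, with 24 and 19 against 4 and 8 reads (-1.76 ± 0.47), and HIST1H3B was higher, with 5 and 1 against 15 and 14 reads (2.29 ± 0.61), a call that HIST1H3B lost without DND-41 DMSO replicate 2 (1.58, adjusted p = 0.0519) and whose value was 3.75 without DND-41 DMSO replicate 1.
HIST1H4E had 17 and 18 reads against 19 and 12, and did not pass the test. HIST1H4H, level with it in reads, had 21 and 28 against 13 and 14, and its difference of -0.79 ± 0.36 did not pass the test (adjusted p = 0.0568, edgeR) but did with total-count scaling (0.0428) and without DND-41 DMSO replicate 1 (0.0497). HIST1H4I had 21 and 18 against 11 and 7 (-1.04 ± 0.42, adjusted p = 0.0322), a call lost with DESeq2 (0.232) and without DND-41 DMSO replicate 1 (0.142), DND-41 DMSO replicate 2 (0.0608) or MOLT-4 DMSO replicate 2 (0.248). HIST3H3, the testis H3 gene, had 0 or 1 read in each library. HIST1H2AA and HIST1H2BA, a testis pair, were at 0 in all 8.

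**Figure D3:**
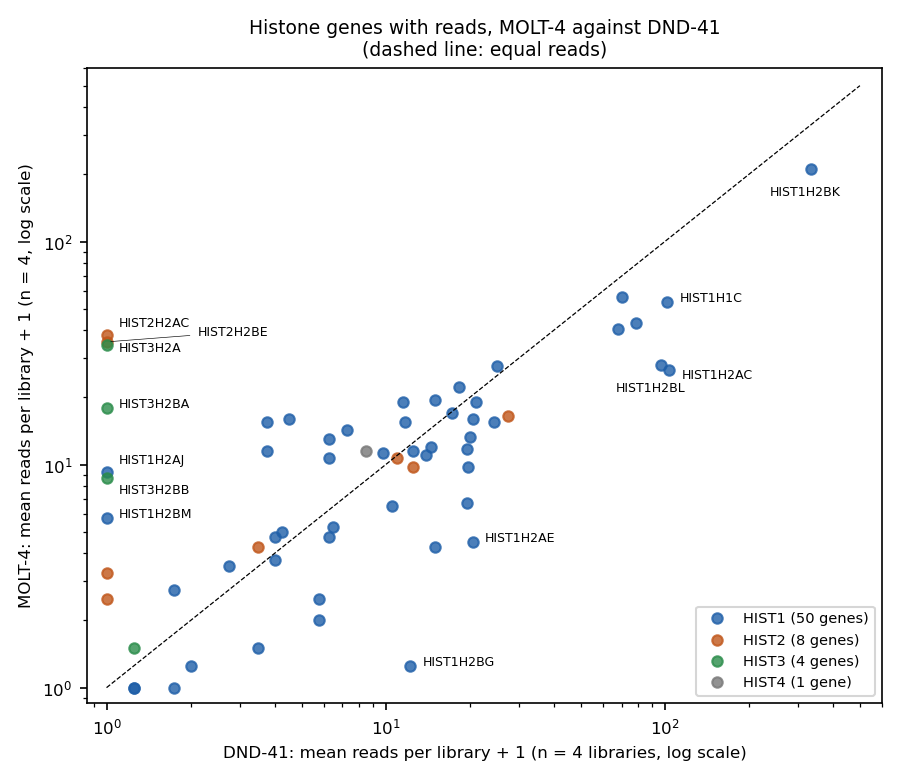
Mean reads per library plus 1 in MOLT-4 (vertical axis) against DND-41 (horizontal axis), both on a log scale and over 4 libraries of each line, for the 63 entries with reads, coloured by gene cluster. The 9 entries at the left edge, among them HIST2H2BE and HIST3H2A, had 0 reads in DND-41, and HIST1H2BG and HIST1H2AE lie well below the dashed line of equal reads.

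The lines also differed in the share of each gene cluster. HIST1 genes on chromosome 6 gave 95.2% to 95.9% of the members' reads in DND-41 libraries and 80.2% to 83.2% in MOLT-4. HIST2 genes on chromosome 1 had 45 to 58 reads in DND-41 and 99 to 126 in MOLT-4. That difference rested on HIST2H2AC and HIST2H2BE, at 0 in DND-41 and at 29 to 43 and 25 to 47 reads in MOLT-4. HIST2H2BD had 18 to 34 reads in DND-41 against 13 to 19 in MOLT-4. HIST2H2BC had 9 to 13 against 5 to 15, and HIST2H2BF 7 to 16 against 8 to 13. HIST2H2AB, HIST2H2AA3 and HIST2H3D had 0 to 5 reads in each library. The 4 HIST3 genes, also on chromosome 1, had 0 to 1 in DND-41 against 51 to 64 in MOLT-4. HIST4H4 on chromosome 12 had 5 to 9 against 7 to 13. In all, 9 of the 63 entries with reads (14.3%) had them in MOLT-4 only, where 13.4% of all 30191 entries with reads did. Another 3 entries (HIST1H1T, HIST1H2BB and HIST1H4F), or 4.76%, had reads in DND-41 only, with 1 to 3 reads each over the 4 libraries, where 9.87% of all entries did. The share in MOLT-4 only is near the background.

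The divergent pairs are described gene by gene, and no share over other gene pairs was computed to set beside their counts. In GENCODE 29, 13 pairs of an H2A and an H2B gene had starts under 1000 bases apart. In 3 pairs both genes were at 0 in every DND-41 library and had reads in MOLT-4: HIST2H2AC with HIST2H2BE, HIST3H2A with HIST3H2BB (234 bases apart) and HIST1H2AJ with HIST1H2BM (304 bases). Reads were few for HIST3H2BB (5 to 12 per MOLT-4 library), HIST1H2AJ (5 to 12) and HIST1H2BM (2 to 9). No pair showed the reverse, 6 pairs had reads of both genes in both lines, and 1 was at 0 in all 8 libraries. In the other 3 pairs 1 gene was at 0 in every DND-41 library while its partner had reads there. These were HIST2H2AA3 with HIST2H2BD, HIST2H2AA4 with HIST2H2BC, and HIST1H2AD with HIST1H2BF. HIST2H2AA4 and HIST1H2AD were at 0 in MOLT-4 too. HIST1H2AE and HIST1H2BG, 283 bases apart, were both low in MOLT-4, with 2 to 5 and 0 to 1 reads against 14 to 28 and 10 to 13 in DND-41.
In other pairs the genes differed. HIST1H2AC had 18 to 32 reads in MOLT-4 against 82 to 119 in DND-41, while its partner HIST1H2BC had 11 to 18 against 16 to 28. HIST1H2BC gave 15.98% of the pair's reads in DND-41 and 37.04% in MOLT-4, whereas HIST1H2BJ gave 21.64% and 21.39% of those of its pair with HIST1H2AG.

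**Figure D4:**
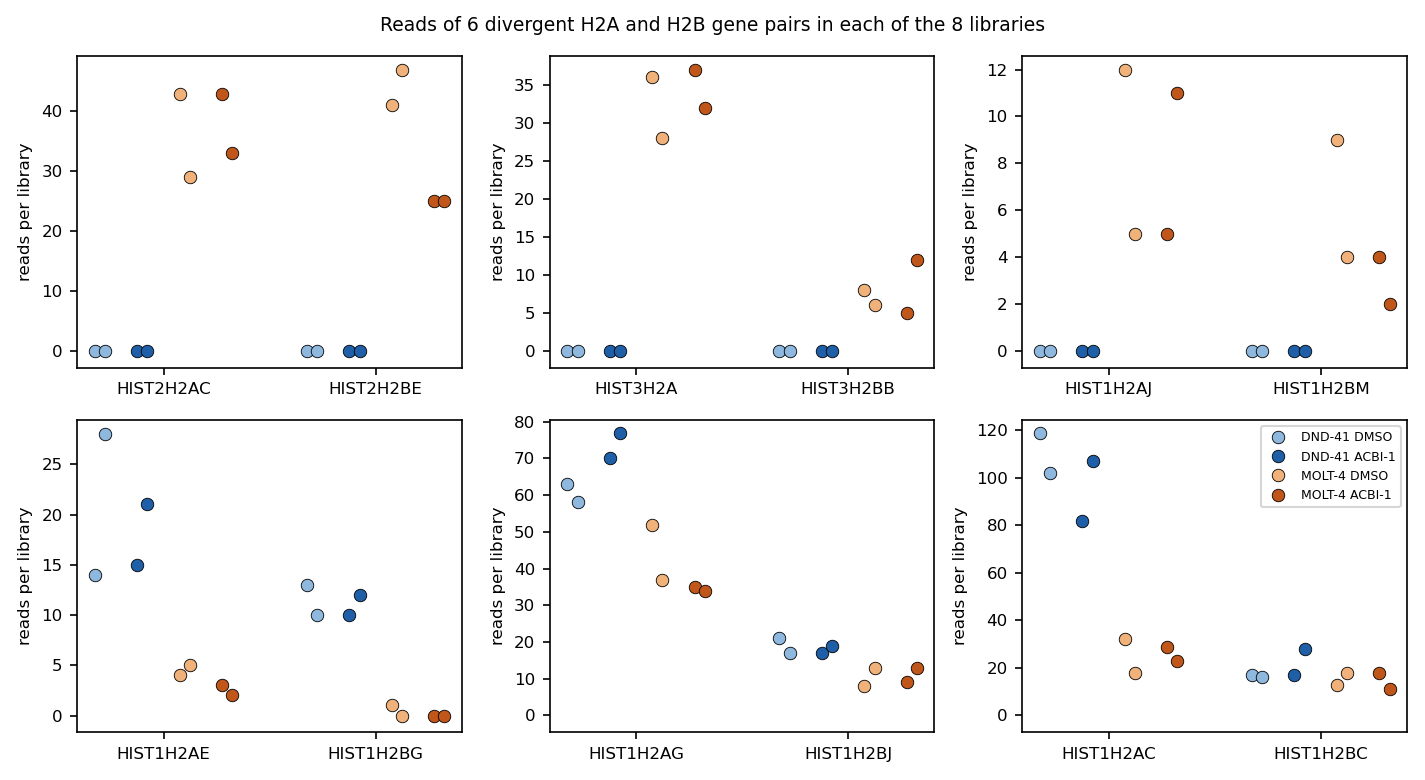
Reads per library (vertical axis) of both genes of 6 divergent pairs, with 1 point for each of the 8 libraries, coloured by line and treatment. The 3 pairs of the upper row are at 0 in DND-41, and HIST1H2AE and HIST1H2BG in the lower row are low in MOLT-4.

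Some genes next to the pairs at 0 in DND-41 had reads in both lines and others did not. BOLA1, 0.5 kb from the HIST2H2AC pair, had 232 to 327 reads in DND-41 and 249 to 420 in MOLT-4. RNF187, 26.6 kb from the HIST3H2A pair, had 6470 to 7664 and 3772 to 4164, and TRIM17 on the other side of the pair had 56 to 108 and 90 to 109. HIST1H3H, the histone gene 3.1 kb from the HIST1H2AJ pair, had 6 to 19 and 7 to 14 reads, whereas HIST3H2BA, 3.6 kb from the HIST3H2A pair, was at 0 in DND-41 with 12 to 21 reads in MOLT-4. HIST2H2AB, 0.2 kb from the HIST2H2AC pair, was likewise at 0 in DND-41, with 2 to 3 reads in MOLT-4. On the other side of that pair HIST2H4B was at 0 in both lines and FCGR1A had 0 to 4 reads in DND-41 and 0 in MOLT-4, and OR2B2 beside the HIST1H2AJ pair was at 0 in both lines.

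Several histone variants outside the replication-dependent set fell with ACBI-1. Of 12 listed variant genes 9 were tested in each line, and 3 fell and 0 rose in each, where 6.05% of all tested genes in DND-41 and 6.94% in MOLT-4 fell. The list had a median log2 fold change of -0.11 in both lines. H1F0 (linker histone H1.0) had 9230 and 10064 reads in DND-41 with DMSO and 6752 and 7796 with ACBI-1, and 2126 and 2026 against 1598 and 1445 in MOLT-4. The groups did not overlap in either line, and it fell by 0.42 ± 0.08 and 0.48 ± 0.07 on the log2 scale (adjusted p = 0.000229 and 1.14e-05, edgeR).
H3F3B, an H3.3 gene, had 5394 and 5578 reads in DND-41 with DMSO against 3565 and 3930, and 7562 and 7077 against 6141 and 5785 in MOLT-4. It fell by 0.56 ± 0.07 and 0.32 ± 0.06. H1FX, another linker histone gene, fell by 0.39 ± 0.09 and 0.27 ± 0.06.
Leaving out a library leaves a single one in its group. Some of these fits called hardly any gene, so a call lost there says little about a given gene. In DND-41 all 3 calls were lost without ACBI-1 replicate 1, where H1F0 stood at -0.33 and H3F3B at -0.51. H1F0 there was also lost without DMSO replicate 2 (-0.35). H1FX was also lost without DMSO replicate 1 (-0.34) and with DESeq2 (adjusted p = 0.360). The log2 fold change of H1FX in DND-41 was -0.20 without ACBI-1 replicate 1 and -0.60 without ACBI-1 replicate 2, the libraries whose mitochondrial shares differ as given above. In MOLT-4 all 3 were lost without either ACBI-1 library, as was every other call. Without ACBI-1 replicate 1 and replicate 2, H1F0 stood at -0.54 and -0.41, H3F3B at -0.35 and -0.29, and H1FX at -0.32 and -0.22. H1FX was also lost in the edgeR fit of all 8 libraries (adjusted p = 0.0550). H2AFX, the DNA-damage variant H2A.X, had 10343 and 10750 reads against 8714 and 10064 in DND-41 and did not pass the test (-0.18 ± 0.08, adjusted p = 0.149), nor in MOLT-4 (-0.09 ± 0.06, adjusted p = 0.416). CENPA, the centromeric H3, stood at -0.18 ± 0.07 in MOLT-4 (adjusted p = 0.117).

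**Figure D5:**
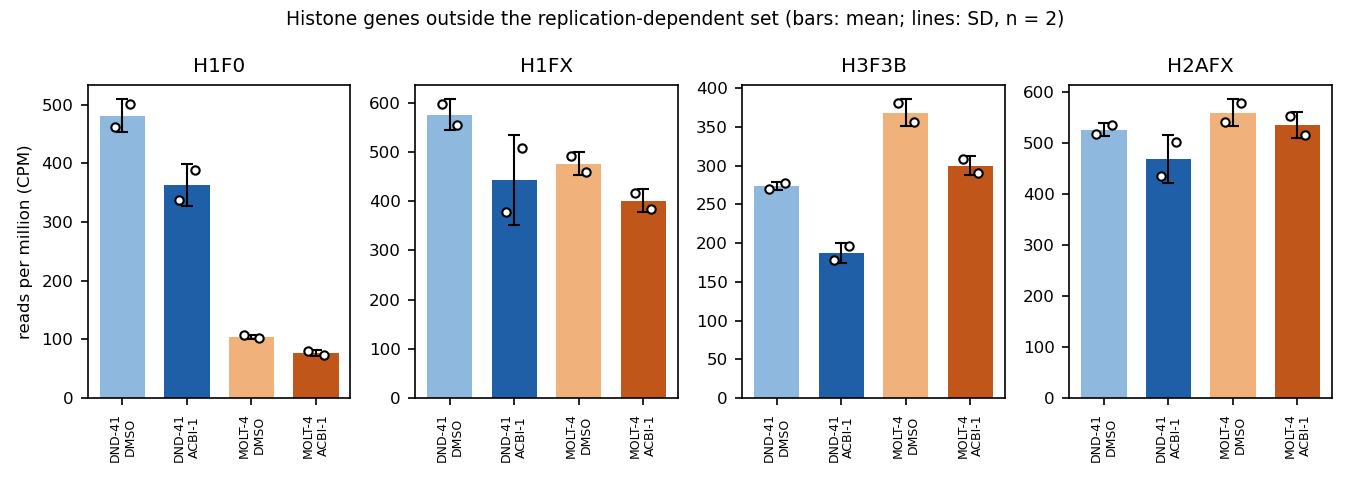
Level (vertical axis, CPM) of 4 histone genes outside the replication-dependent set, with bars for the mean of 2 libraries, lines for the SD and circles for single libraries. H1F0 and H3F3B are lower with ACBI-1 in both lines, and with DMSO H1F0 stands at 482 CPM in DND-41 against 104 in MOLT-4.

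Genes that make or clear histone mRNA were called singly, and their counts are read against 9.83% of all tested genes called in DND-41 and 10.8% in MOLT-4. Of 15 tested genes of histone transcription and 3′ end processing, 1 rose in DND-41 (LSM11, a subunit of the U7 snRNP, 0.36 ± 0.10), and in MOLT-4 1 rose (ZNF473, a U7 snRNP-associated zinc finger protein, 0.28 ± 0.08) and 1 fell (CSTF2T, a cleavage factor, -0.35 ± 0.07). SLBP had 3026 and 2939 reads in DND-41 with DMSO against 2876 and 3339, a log2 fold change of 0.05 ± 0.07, and stood at 0.03 ± 0.07 in MOLT-4. The log2 fold change of NPAT was -0.13 ± 0.08 in DND-41 and -0.18 ± 0.07 for MOLT-4, and neither passed the test (adjusted p = 0.333 and 0.125).
None of the 10 tested decay genes was called in either line. Among 13 tested genes of G1/S and S phase, 0 were called in DND-41 and 1 fell in MOLT-4, CCNE1, the gene of cyclin E1, with 792 and 641 reads against 481 and 562 (-0.49 ± 0.10). Among 16 histone chaperones 1 rose in DND-41, the importin gene IPO4, with 13 and 18 reads against 38 and 40 (1.32 ± 0.33), and 0 were called in MOLT-4.
Each of these 5 calls was lost when single libraries were left out, which leaves a single library in a group. For LSM11 that was any of the 4 DND-41 libraries (log2 fold change 0.29 to 0.43). IPO4 was lost without ACBI-1 replicate 1 (1.34), ACBI-1 replicate 2 (1.29) or DMSO replicate 1 (1.09). Among these fits, CCNE1 and CSTF2T were lost only without either MOLT-4 ACBI-1 library (-0.36 and -0.61 for CCNE1, -0.40 and -0.29 for CSTF2T). Every other call in MOLT-4 was lost there too, so this says nothing particular to these genes. ZNF473 was lost there and without DMSO replicate 2 (0.25). With DESeq2 on all libraries of a line, LSM11 (adjusted p = 0.161) and ZNF473 (0.127) were also lost.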

How the data were processed

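Both lines were sequenced as strand-specific paired-end libraries from total RNA, per the labels' protocols. The authors deposited raw read counts per gene, 1 table per line. Per the submitters' processing notes, the tools were STAR 2.5.2a, featureCounts and DESeq2 1.12.4, with hg19 as the build. Not given in the sources used here are the annotation, the strand setting and any RNA selection. The authors also deposited 1 comparison table per line with log2 fold changes and p-values, per the file headers, whose sign matched ACBI-1 minus DMSO in DND-41 and the opposite in MOLT-4.

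Groups came from the titles in the labels. All 63677 genes entered edgeR 4.0.16 (R 4.3.3, limma 3.58.1) with TMM scaling, filterByExpr (minimum count 10, total 15), the quasi-likelihood F-test and Benjamini-Hochberg adjustment over all genes tested, at 5%. Every adjusted p comes from edgeR unless DESeq2 1.42.0 or the authors' table is named. ACBI-1 was compared with DMSO in the 4 libraries of a line, and the line difference and the interaction on all 8. SE is the log2 fold change over the root of F. CPM values divide by the total counts of a library. Ratio intervals are exact binomial (95%) and, like the floor of 3 reads, cover counting error only. The procedure was tested on simulated data in which the changed genes had more reads than most members, so that test does not cover genes with few reads. Replicates differed beyond sampling noise, with a mean chi-square per gene of 2.99 to 5.10, and 15.6 in DND-41 with ACBI-1.

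The members and the 5 gene lists were chosen with earlier results of these data known. Genes were named where they passed the threshold with ACBI-1, where they were among the 3 of their type with the highest mean CPM, or as the lowest p-values of a list. The largest line differences were limited to called genes with a mean of at least 5 CPM, which left HIST1H2BK, and other names are marked as chosen after seeing values. A further marker of other lineages is not reported here. Positions, biotypes and pairs came from GENCODE 29 (GRCh38) by symbol, as no coordinates of the hg19 annotation were used.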

Additional observations from a re-analysis of the deposited data

How the results depend on the processing

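The count of 0 called histone genes in DND-41 and 0 in the interaction held in all alternatives run, of which DESeq2 gave an adjusted p to 7 and 9 members. In MOLT-4 the count was 1, and it was 0 with DESeq2, with total-count scaling, without the filter on low counts, with all 8 libraries in 1 fit, and in each fit without 1 library (0 to 0). Between the lines it was 21 and lay between 17 and 21. With the replicate number as a block the 4 counts were 0, 1, 0 and 20. The numbers are not shown to pair the libraries: same-numbered deviations correlated at 0.067 in each line, over 2 pairs. The block moved the calls over all genes from 1378 to 2230 in DND-41, from 1568 to 2228 in MOLT-4 and from 100 to 302 in the interaction, and no member was gained. Among the other listed genes the block added calls in DND-41 for H2AFX (adjusted p = 0.0254), CCNA2 (0.0419), E2F1 (0.00258), E2F2 (0.0104), DAXX (0.0374), NCBP2 (0.0214) and ZNF473 (0.0104), and in MOLT-4 for CCNA2 (0.0185). Without the filter on low counts, calls over all genes dropped to 2 in DND-41, 0 in MOLT-4 and 1 in the interaction, so the count of 0 members under that setting says little, and the cause was not tested. In DND-41, 3 genes were called without ACBI-1 replicate 1 and 177 without ACBI-1 replicate 2. In MOLT-4, 0 genes were called without either ACBI-1 library. The summed members differed between the lines by -0.37 on the log2 scale, and by -0.068 without the gene with the most reads of each type, which removes HIST1H2BK among others. Depth limits the comparisons with ACBI-1, where the median half-width of the 95% interval was 0.75 in DND-41 and 0.80 in MOLT-4 on the log2 scale.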
